A study of Mus musculus with 2 samples.

Results

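The 9 genes described here are transcription factors of the early oocyte and a few genes that oocytes switch on early: Figla, Nobox, Lhx8, Sohlh1, Sohlh2, Taf4b, Ybx2, Ooep and Nlrp14. They were chosen by name, each has 1 row among the 27998 genes of the count tables, and all 9 were found. Transcripts of single cells were counted in mouse ovaries at E15.5, the embryonic day at which female germ cells pass through meiotic prophase. WT ovaries were wild type for Nr3c1, which encodes the glucocorticoid receptor (GR), and KO ovaries carried a homozygous GR deletion. The deletion came from the floxed allele Nr3c1tm1.1Jda recombined in the germ line by a Cre under the β-actin promoter, so that the deletion is present in every cell of the KO embryo, and both genotypes came from crosses of heterozygotes. Both groups carried the transgene Tg(Pou5f1-EGFP)2Mnn, whose GFP was used to sort germ cells, and sorted germ cells were mixed with somatic cells of the same ovaries at 60 to 40. All embryos were female. Ovary pairs of 4 WT and of 2 KO embryos were pooled into 1 library per genotype, so there is no replicate, no p-value is given, and genotype cannot be told apart from pool, sort or capture.

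In the fetal ovary, germ cells stop dividing mitotically, enter meiosis and pass through prophase. Figla, Sohlh1 and Sohlh2 encode basic helix-loop-helix (bHLH) factors, which bind E-boxes as dimers. Nobox and Lhx8 encode homeodomain factors. Female mice that lack Figla, Nobox, Lhx8, Sohlh1 or Sohlh2 are known to lose oocytes around the time follicles form or soon after, and Sohlh1 and Sohlh2 are known to lie upstream of Lhx8 and Nobox. Taf4b encodes a gonad-enriched subunit of the general factor TFIID, Ybx2 (MSY2) a germ cell protein that binds and stores mRNA, Ooep a component of the subcortical maternal complex of the egg, and Nlrp14 an NLR family protein of oocytes needed by the early embryo.

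On the GRCm38 assembly, Sohlh1 is at chr2:25842995-25847248 on the minus strand, Nobox at chr6:43303674-43309554 on the minus strand, Figla at chr6:86016171-86020996 on the plus strand and Lhx8 at chr3:154306294-154330659 on the minus strand. Sohlh2 is at chr3:55182028-55209957 and Ybx2 at chr11:69935796-69941605, both on the plus strand, Ooep is at chr9:78376109-78378725 on the minus strand, and Nlrp14 at chr7:107166990-107198102 on the plus strand. All 9 genes are protein coding. No annotated gene overlaps any of them but Taf4b, which contains a processed pseudogene that has no row in the count tables. The stretches upstream of the start sites of Sohlh1, Nobox, Figla and Lhx8 are shown because these 4 transcription factor genes were enriched in the same small group of germ cells. Each is the RefSeq promoter (GRCm38.p6) up to the last base before the first annotated exon base inside its window, 5′ to 3′ on the strand of the gene, with E-boxes (CANNTG) in capitals.
Sohlh1, chr2:25847249-25847498, minus strand: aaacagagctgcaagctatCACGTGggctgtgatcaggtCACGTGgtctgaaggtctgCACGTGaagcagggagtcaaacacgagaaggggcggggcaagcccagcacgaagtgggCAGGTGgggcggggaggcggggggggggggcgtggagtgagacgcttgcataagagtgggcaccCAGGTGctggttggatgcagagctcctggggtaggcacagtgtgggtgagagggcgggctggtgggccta
Nobox, chr6:43309555-43309804, minus strand: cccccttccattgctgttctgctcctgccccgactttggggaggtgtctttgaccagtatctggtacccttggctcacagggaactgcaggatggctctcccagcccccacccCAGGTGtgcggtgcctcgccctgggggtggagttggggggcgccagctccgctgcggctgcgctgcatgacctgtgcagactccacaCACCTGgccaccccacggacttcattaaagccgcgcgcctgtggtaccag
Figla, chr6:86016941-86017190, plus strand: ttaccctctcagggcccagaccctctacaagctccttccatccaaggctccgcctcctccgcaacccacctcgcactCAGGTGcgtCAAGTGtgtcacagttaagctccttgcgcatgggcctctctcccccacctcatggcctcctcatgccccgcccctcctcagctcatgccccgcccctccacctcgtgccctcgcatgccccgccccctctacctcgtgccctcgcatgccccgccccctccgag
Lhx8, chr3:154330660-154330810, minus strand: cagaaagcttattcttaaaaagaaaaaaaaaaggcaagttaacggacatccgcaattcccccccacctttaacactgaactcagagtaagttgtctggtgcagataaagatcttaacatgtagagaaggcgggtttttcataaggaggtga

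Over the window from 250 bases before to 50 bases after the start, the Sohlh1 promoter held 5 E-boxes, 3 of which read CACGTG, at 231, 211 and 192 bases before the start. Among 32851 mouse promoters of the same length, 72.3% held at least 1 E-box and 2.10% held 5 or more. CACGTG occurred in 7.15% of them and at least 3 times in 0.0883%, a count made after the Sohlh1 sequence had been seen. Figla held 4 E-boxes, 2 of them in the stretch shown, Nobox held 2 and Lhx8 held 0. The Figla stretch lies in an intron of a second transcript, which starts farther upstream. Ooep held 1 E-box and 1 NOBOX element (TAATTG or TAATTA on either strand), which was present in 12.4% of promoters, and its stretch up to the first exon at chr9:78378726-78378838 is given with the element in capitals.
Ooep, minus strand: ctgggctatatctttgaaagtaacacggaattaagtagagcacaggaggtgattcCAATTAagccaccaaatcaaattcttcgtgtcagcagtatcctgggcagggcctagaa
Both motifs were searched on both strands. These matches describe letters and not bound sites.

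The filters of the study left 9045 WT cells with a median of 15685 UMIs and 15502 KO cells with a median of 10194.5. A UMI is a molecular tag that marks 1 captured transcript near its 3′ end. Totals were 168483330 UMIs in the WT and 186117981 in the KO library, and 27 kept cell barcodes occurred in both. Germ-like cells, called from Dazl, Ddx4, Mael, Sycp3, Smc1b, Tex101 and Stk31, made up 75.1% of WT and 65.8% of KO cells. RNA of germ cells was also counted in somatic cells: these 7 germ markers had a median somatic level of 12.5% of the germ level in WT and 18.2% in KO, with ranges of 12.1% to 13.0% and 17.4% to 19.3%. The GR deletion was visible in the counts, with Nr3c1 at 72.2 CPM (UMIs of the gene per 1000000 UMIs) in WT and 11.6 CPM in KO germ cells, a log2 ratio of KO over WT of -2.64 (-2.73 to -2.56, exact 95% interval). Intervals here and below cover counting error only.

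Germ cells were clustered with all 9 genes left out of the genes used, and the clusters were ordered along the first 2 principal components into 6 stages, an order chosen after the data had been seen. Stage 1 was premeiotic-like, stage 2 meiotic entry-like and stage 3 recombination-like by their markers. Stages 4 to 6 had no such name and were led by Gm8730 and Hist1h2aa, by Map1a, Slc39a10 and Ogt, and by Sohlh1 (itself not used in the clustering), Pdcl2 and Cfap126. A list of advanced prophase markers was not raised as a set in stage 6, with a mean log2 enrichment over the other germ cells of -0.39. The stage number is therefore no measure of meiotic age. Stages 1 to 6 held 284, 349, 1604, 1071, 1757 and 1657 WT cells and 622, 1144, 2323, 2298, 1936 and 1761 KO cells. A germ cluster of 186 cells led by somatic genes (Xist, Fst and Kitl among them), in which Scrublet called 33.8% of WT and 58.5% of KO cells doublets, was set aside.

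The genes that passed the level of somatic cells fell into 3 patterns across the stages. Figla, Sohlh2, Taf4b and Ybx2 were present from stage 1 onward, Nobox and Lhx8 first passed the somatic level in stage 3, and Sohlh1 passed it in stage 6 alone. Nobox in WT did not pass in stage 5, where 0.626% of cells had a UMI (0.313% to 1.12%), so it passed in 3 stages of WT and 4 of KO. Without thinning the first stage was 1 for Lhx8 and 2 for Nobox in both libraries. Ooep and Nlrp14 did not pass it in any stage. First appearance was read from the share of cells with at least 1 UMI after each cell had been thinned at random to 3000 UMIs, which puts deep and shallow cells at 1 depth. A stage counted when its exact 95% interval lay above that of the somatic cells of the same library.

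Figla, needed for primordial follicles and for the zona genes, was at 129 CPM (120 to 138) in stage 1 of WT, at 223 in stage 3 and 222 in stage 4, and at 143 in stage 5 and 204 in stage 6. In KO the same stages read 131, 205, 259, 211, 146 and 157 CPM. After thinning, 28.9% of WT and 35.2% of KO stage 1 cells had a Figla UMI, against 3.46% and 5.47% of somatic cells. Taf4b had its highest level in stage 3 of both libraries, 192 CPM in WT and 184 in KO, and its lowest in stage 1, 104 and 87.2 CPM. It then read 134, 176 and 119 CPM in stages 4 to 6 of WT and 135, 170 and 108 CPM in KO, the same zigzag in both libraries. Ybx2 was higher in the later stages, from 37.9 CPM (33.4 to 42.9) in stage 1 to 80.6 (77.3 to 84.0) in stage 6 of WT, a 2.13-fold difference, and from 42.9 to 60.7 CPM in KO, a 1.41-fold difference. In KO, stages 1 and 2 of Ybx2 did not differ beyond their intervals (42.9 and 42.4 CPM).

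Sohlh2, the bHLH partner of Sohlh1, took the reverse course. It was highest in stage 1, at 54.5 CPM (49.1 to 60.4) in WT and 55.9 (51.4 to 60.7) in KO, fell to 22.0 and 21.0 CPM in stage 3, and was at 30.1 and 26.6 CPM in stage 6. The log2 ratio of stage 6 over stage 1 was -0.86 (-1.04 to -0.68) in WT and -1.07 (-1.26 to -0.89) in KO. Stages 3, 4 and 5 of Sohlh2 did not differ beyond their intervals in either library.

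Sohlh1 had a gap in the middle stages. In WT it was at 4.56 CPM (3.10 to 6.47) in stage 1, at 0.85, 0.513, 1.26 and 2.32 CPM in stages 2 to 5, and at 49.9 CPM (47.3 to 52.6) in stage 6. In KO the stages read 3.68, 0.355, 0.198, 0.564, 0.595 and 13.0 CPM (11.3 to 14.9 in stage 6). Stage 6 was thus 10.9-fold above stage 1 in WT and 3.53-fold in KO. After thinning, 7.66% of WT stage 6 cells (6.43% to 9.05%) and 3.29% of KO stage 6 cells (2.51% to 4.24%) had a Sohlh1 UMI. The somatic shares were 1.06% (0.683% to 1.58%) and 1.66% (1.33% to 2.04%), and the stage 1 shares of 1.06% and 0.965% did not exceed them. With granulosa-like cells alone as the reference, KO stage 6 no longer passed. Nor did it pass the pooled somatic reference without the 24 cells of the late group described below, at 2.48% (1.80% to 3.32%), whereas WT stage 6 without its late group was at 5.18% (4.14% to 6.39%).

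Nobox and Lhx8 were sparse but graded. Nobox read 0.588, 1.56, 3.37, 3.78, 2.58 and 8.75 CPM in WT stages 1 to 6 and 0.485, 1.89, 3.77, 4.03, 2.93 and 4.60 CPM in KO. Lhx8 read 3.68, 1.56, 4.07, 7.42, 8.94 and 22.0 CPM in WT and 2.04, 2.72, 5.49, 7.69, 8.14 and 12.4 CPM in KO. Both read highest in stage 6 of each library. In KO, however, the stage 6 interval of Nobox (3.61 to 5.79 CPM) overlapped those of stages 3, 4 and 5, and in WT Lhx8 did not differ beyond its intervals between stage 1 (2.38 to 5.43 CPM) and stage 3 (3.35 to 4.90 CPM). At 3000 UMIs, 1.99% of WT and 1.59% of KO stage 6 cells had a Nobox UMI, and 5.13% and 3.63% had an Lhx8 UMI, against at most 0.245% of somatic cells for either gene. Stage 6 exceeded stage 1 by 14.9-fold for Nobox (on 4 UMIs in stage 1) and by 5.99-fold for Lhx8 in WT, and by 6.11-fold for Lhx8 in KO. The Nobox difference in KO, 9.50-fold on 78 UMIs, fell under the 100 UMIs set as the minimum for a count.

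Ooep, like Sohlh1, was lowest in the middle stages, but it was not higher in stage 6 than in stage 1 (0.92-fold in WT and 0.75-fold in KO), with 9.12 CPM in stage 1, 1.17 in stage 3 and 8.39 in stage 6 of WT, and 7.37, 1.09 and 5.49 CPM in KO. Its pooled somatic level was higher than its pooled germ level, at 13.5 CPM in WT and 9.83 CPM in KO, so no stage passed the reference. Nlrp14 was nearly undetected. It had 7 UMIs in WT and 13 in KO germ cells, 10 of the latter in stage 1, and 0 of 2255 WT and 0 of 5300 KO somatic cells had a UMI, which allows shares of up to 0.133% and 0.0566% of cells with a UMI. In KO stage 6, 0 of 1761 cells had one, which allows up to 0.170%.

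**Figure D1:**
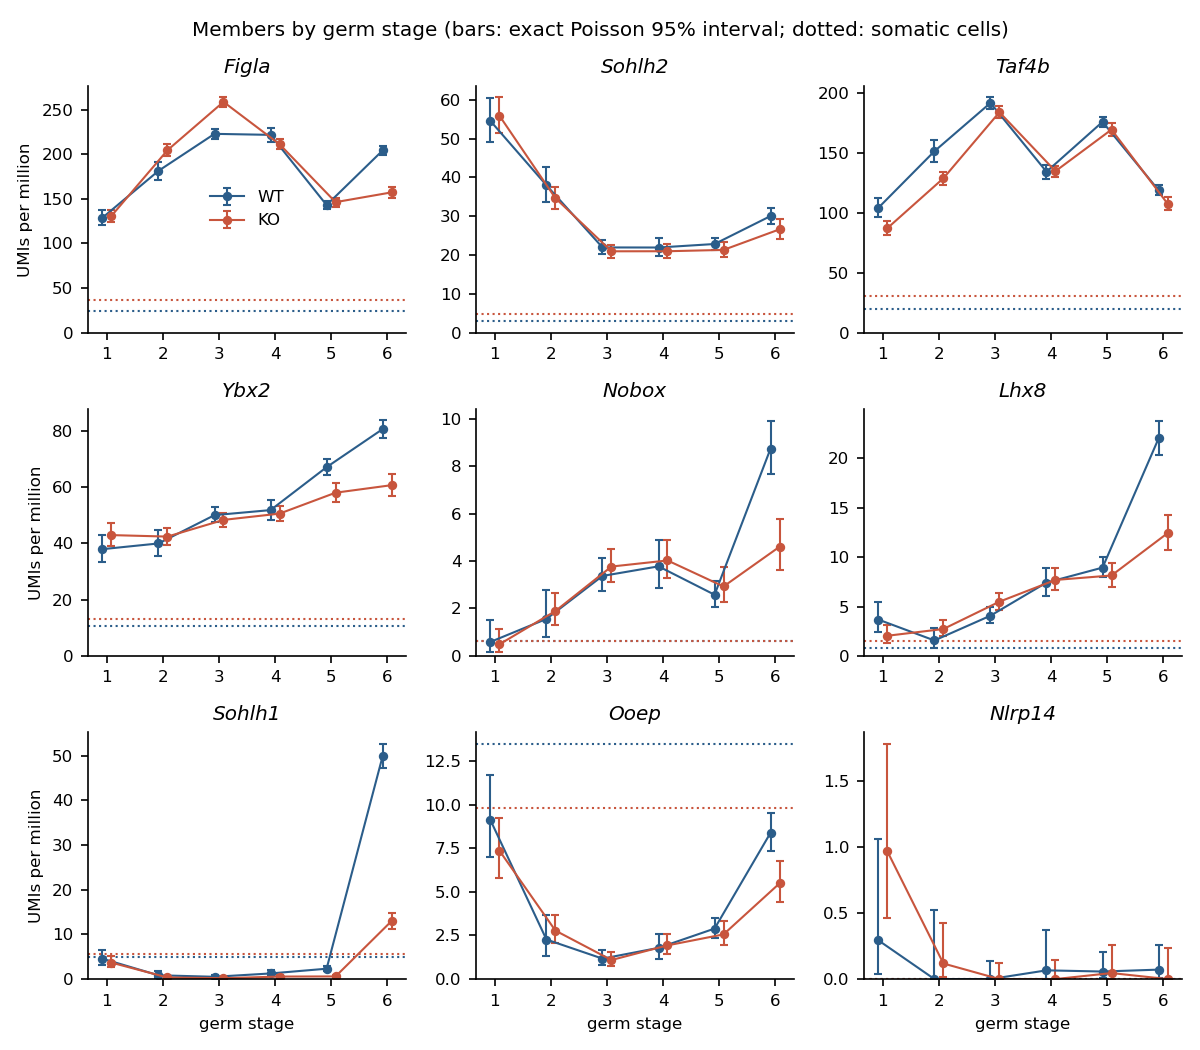
Level of each of the 9 members (CPM, linear axes that differ between panels) in stages 1 to 6 of WT and KO, with exact Poisson 95% intervals, and the somatic level of each library as a dotted line. Sohlh1 lies under the somatic level in stages 2 to 5 and reaches 49.9 in WT and 13.0 in KO in stage 6, whereas Sohlh2 is highest in stage 1 and Ooep stays under its somatic level.

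At least 2-fold higher in stage 6 than in stage 1 were 4 of 8 counted members in WT (Nobox, Lhx8, Sohlh1 and Ybx2), where 18.1% of 10320 genes passed this limit, and 2 of 7 in KO (Lhx8 and Sohlh1), where 14.2% of 9622 genes did. The median log2 difference over the members was 0.88 in WT and 0.30 in KO, beside 0.17 and 0.08 over all genes counted.

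Within stage 6, the members were concentrated in a small group of cells. At a lower cluster resolution of 0.3, 97 germ cells, all of them in stage 6, separated as 1 cluster, 73 of WT and 24 of KO. This late group was singled out after the data had been seen and is unnamed. The word late refers to the stage order alone, since advanced prophase markers had a mean log2 enrichment of -0.43 in it over the other germ cells. In WT its leading genes other than the members included Cd55, Dppa3, Ndrg1 and Uchl1, and 89 of its cells lay in 1 cluster of 96 cells at resolution 1. It made up 1.08% of WT germ-like cells (0.844% to 1.35%) and 0.235% of KO germ-like cells (0.151% to 0.350%), a share that the sort and the pool can also set. Its cells were deep, with a median of 20863 UMIs in WT and 10243 in KO, against 15583 and 8166 in stage 6 as a whole. Scrublet called 1.37% of the WT and 0% of the KO cells doublets.

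**Figure D2:**
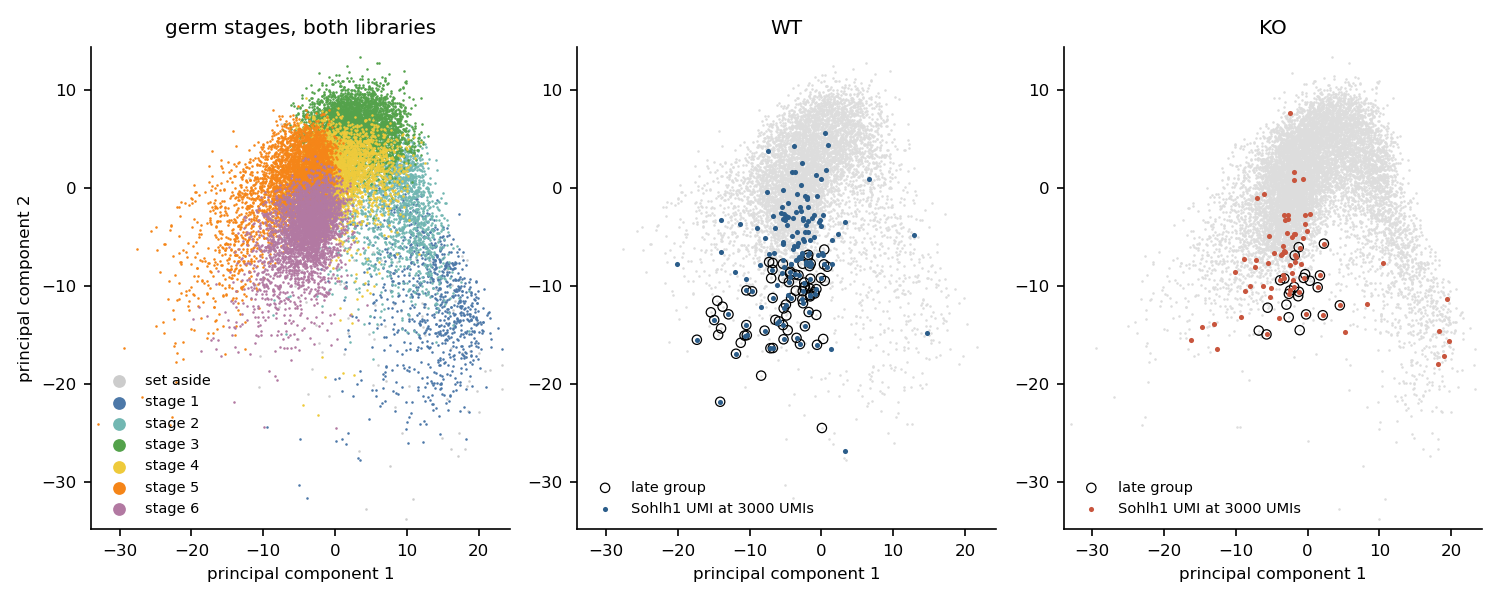
Germ cells on principal components 1 and 2 (no unit), coloured by stage for both libraries on the left, and with cells that hold a Sohlh1 UMI after thinning to 3000 UMIs coloured for WT in the middle and KO on the right, where open circles mark the late group. Cells with Sohlh1 sit mostly in the stage 6 area and overlap the late group of 73 WT and 24 KO cells. In stage 1, 3 of 284 WT cells and 6 of 622 KO cells hold such a UMI.

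Sohlh1 stood at 496 CPM in the WT late group and at 24.3 CPM in the rest of stage 6, a 20.4-fold difference, and at 233 and 9.30 CPM in KO, a 25.1-fold difference. By fold it ranked 3 of 9832 genes in WT and 1 of 8424 in KO. A WT late group cell had a median of 8 Sohlh1 UMIs (0 to 39) and a KO cell a median of 2 (0 to 9). Of all Sohlh1 UMIs in WT germ cells, 48.7% (751 of 1542) came from the 73 late group cells, and of those in KO 21.6% (61 of 283) came from 24 cells.

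The other transcription factors were enriched in the same cells. Nobox was at 68.0 CPM against 5.35 in the rest of WT stage 6, 12.7-fold, and Lhx8 at 129 against 15.9, 8.16-fold. Figla, detected in every stage, was still 5.02-fold higher, at 841 against 168 CPM in WT, and 5.03-fold higher in KO, at 742 against 147 CPM. Ooep was 6.70-fold higher in WT (42.9 against 6.41 CPM) and Ybx2 2.28-fold (172 against 75.4 CPM). Sohlh2 was 1.34-fold higher (39.6 against 29.5 CPM) and Taf4b 0.82-fold (98.4 against 120 CPM), so the gonadal TFIID subunit was not among the enriched members. In KO, Lhx8 was 6.37-fold and Ybx2 2.19-fold higher, and Nobox (42.1 against 3.98 CPM) and Ooep (26.8 against 5.13 CPM) fell under the minimum of 100 UMIs. At least 2-fold higher in the late group were 6 of 8 counted members in WT, where 5.89% of all genes were, and 4 of 6 in KO, where 7.6% were. The group was cut from these cells, so the folds describe it and are no test.

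**Figure D3:**
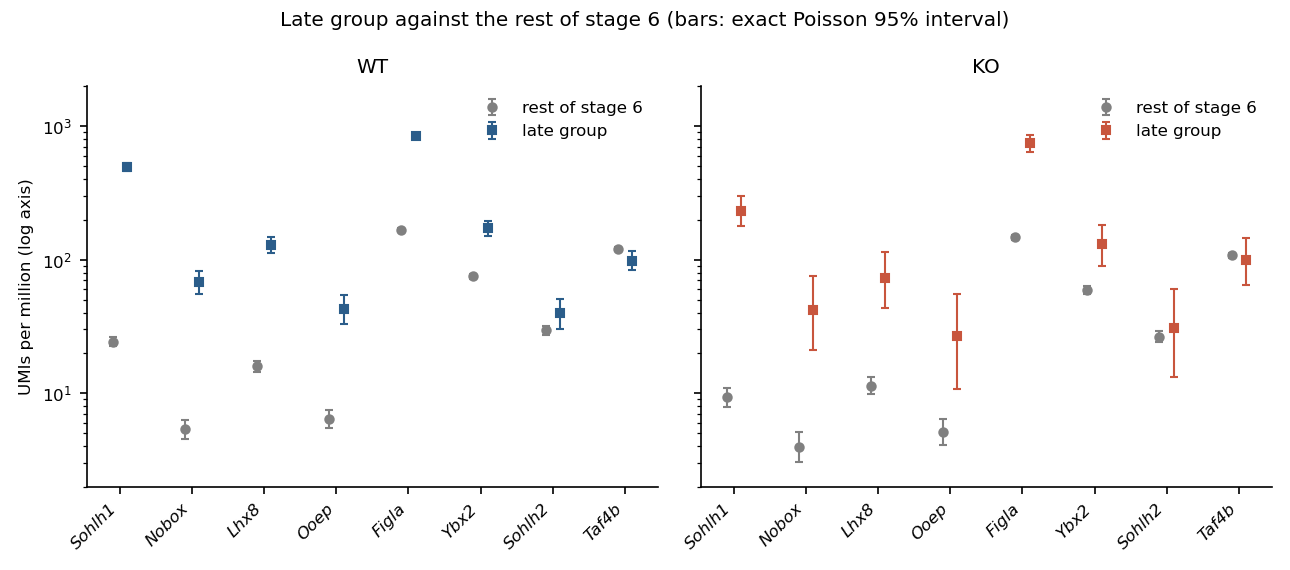
Level of 8 members (CPM, log axis) in the late group of 73 WT and 24 KO cells and in the rest of stage 6, with exact Poisson 95% intervals. Sohlh1, Nobox, Lhx8, Ooep, Figla and Ybx2 lie higher in the late group in both libraries, and Sohlh2 and Taf4b lie near the rest.

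Single cells of the late group therefore held more of the members. A WT late group cell had UMIs of a median of 6 of the 9 genes and a KO cell of 5, against 3 and 2 in the rest of stage 6. After thinning to 3000 UMIs, 54.8% of WT and 45.8% of KO late group cells still had UMIs of at least 3 members, against 6.63% and 5.24% of the rest of stage 6.

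Pairs of members were compared with the product of their 2 separate shares, which gives the share expected if the genes were detected independently. In WT stage 6 at 3000 UMIs, Figla and Sohlh1 were both detected in 91 cells, 5.49% (4.44% to 6.70%), against a product of 2.96%. Lhx8 and Sohlh1 were detected together in 24 cells, 1.45% (0.930% to 2.15%) against 0.393%, and Nobox and Sohlh1 in 8 cells, 0.483% (0.209% to 0.949%) against 0.153%. In KO stage 6 the values were 2.10% against 1.17% for Figla and Sohlh1 (37 cells), 0.341% against 0.0524% for Nobox and Sohlh1 (6 cells), and 0.227% against 0.120% for Lhx8 and Sohlh1 (4 cells), whose interval of 0.0619% to 0.580% included the product. Figla and Taf4b showed no such excess, with 9.66% against 10.1% in WT and 9.14% against 9.24% in KO. Without the late group, Lhx8 and Sohlh1 were found together in 6 WT cells, 0.379% (0.139% to 0.823%) against 0.209%. Figla and Sohlh1 kept an excess there, at 3.22% (2.41% to 4.21%) against 1.89%.

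Inside the WT late group alone, Figla and Sohlh1 co-occurred in 54.8% of cells against a product of 51.5%. In stage 3, where Nobox and Lhx8 first passed the somatic level, 0 of 1604 WT cells and 1 of 2323 KO cells had UMIs of both at this depth. Nobox alone was detected there in 19 WT and 29 KO cells, and Lhx8 in 24 and 43, counting cells with both. With so few cells, independent detection would also give almost no shared cells. These counts therefore cannot tell whether both genes start in the same cells or in separate ones. As a description over the 1657 WT stage 6 cells, which share 1 library and its depth, the correlation with Sohlh1 (Pearson's r of ln of UMIs per 10000 plus 1) was 0.54 for Figla, 0.46 for Lhx8, 0.44 for Nobox and -0.04 for Taf4b. These cells include the late group, where Sohlh1, Figla, Lhx8 and Nobox were all high, so the values do not describe stage 6 without it.

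Between the libraries, members with at least 100 UMIs were 1.5-fold apart in stage 6 and in no other stage. Sohlh1 was lower in KO, at 13.0 against 49.9 CPM, a log2 ratio of -1.94 (-2.16 to -1.73), and the ratio at 3000 UMIs per cell was -1.60 (-2.01 to -1.21). Over all germ cells it was at 2.36 CPM in KO (283 UMIs) and 13.0 CPM in WT (1542 UMIs), a log2 ratio of -2.46 (-2.65 to -2.27), in which the smaller share of stage 6 and late group cells in KO is included. Sohlh1 was also lower in KO within the late group, -1.09 (-1.49 to -0.71), where the thinned value of -0.49 (-1.21 to 0.18) included 0. In the rest of stage 6 it was at 9.30 against 24.3 CPM, -1.38 (-1.65 to -1.12), with a thinned value of -1.27 (-1.79 to -0.77). In stages 1 to 5 Sohlh1 had under 100 UMIs over both libraries and was not counted. Stage 5 came nearest to that minimum, with 13 KO and 81 WT UMIs and a log2 ratio of -1.96 (-2.93 to -1.11), near that of stage 6. Stages 2, 3 and 4 read -1.26, -1.37 and -1.16 on 6, 6 and 14 KO UMIs. The intervals of stages 2 and 3 included 0, and so did that of stage 1 (-0.31).

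Nobox, Lhx8 and Ooep were also past 1.5-fold lower in KO stage 6, at 4.60 against 8.75 CPM (log2 ratio -0.93, -1.32 to -0.54), 12.4 against 22.0 CPM (-0.83, -1.06 to -0.59) and 5.49 against 8.39 CPM (-0.61, -0.98 to -0.25). These calls rested on the late group. Without its 97 cells the ratios were -0.43 for Nobox, -0.47 for Lhx8 and -0.32 for Ooep, all under the limit of 1.5-fold. At 3000 UMIs per cell, Lhx8 remained lower in stage 6 (-0.67, -1.14 to -0.20), and the intervals of Nobox (-1.12 to 0.39) and Ooep (-1.20 to 0.26) included 0. Within the late group, Lhx8 stood at -0.83 and Nobox at -0.69, on 19 and 11 KO UMIs, and after thinning their intervals included 0 and the sign of Nobox turned (1.24, -0.42 to 2.84).

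The 4 members that were present from stage 1 differed by less than 1.5-fold in every stage. In stage 6, Figla was at 157 against 204 CPM (log2 ratio -0.38, -0.45 to -0.31), Ybx2 at 60.7 against 80.6 (-0.41, -0.52 to -0.30), Sohlh2 at 26.6 against 30.1 (-0.17) and Taf4b at 108 against 119 (-0.14). None reached 1.5-fold. In stage 3, Figla was slightly higher in KO, at 259 against 223 CPM (0.22, 0.17 to 0.26), and over all germ cells it was level (0.07, 0.04 to 0.10).

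**Figure D4:**
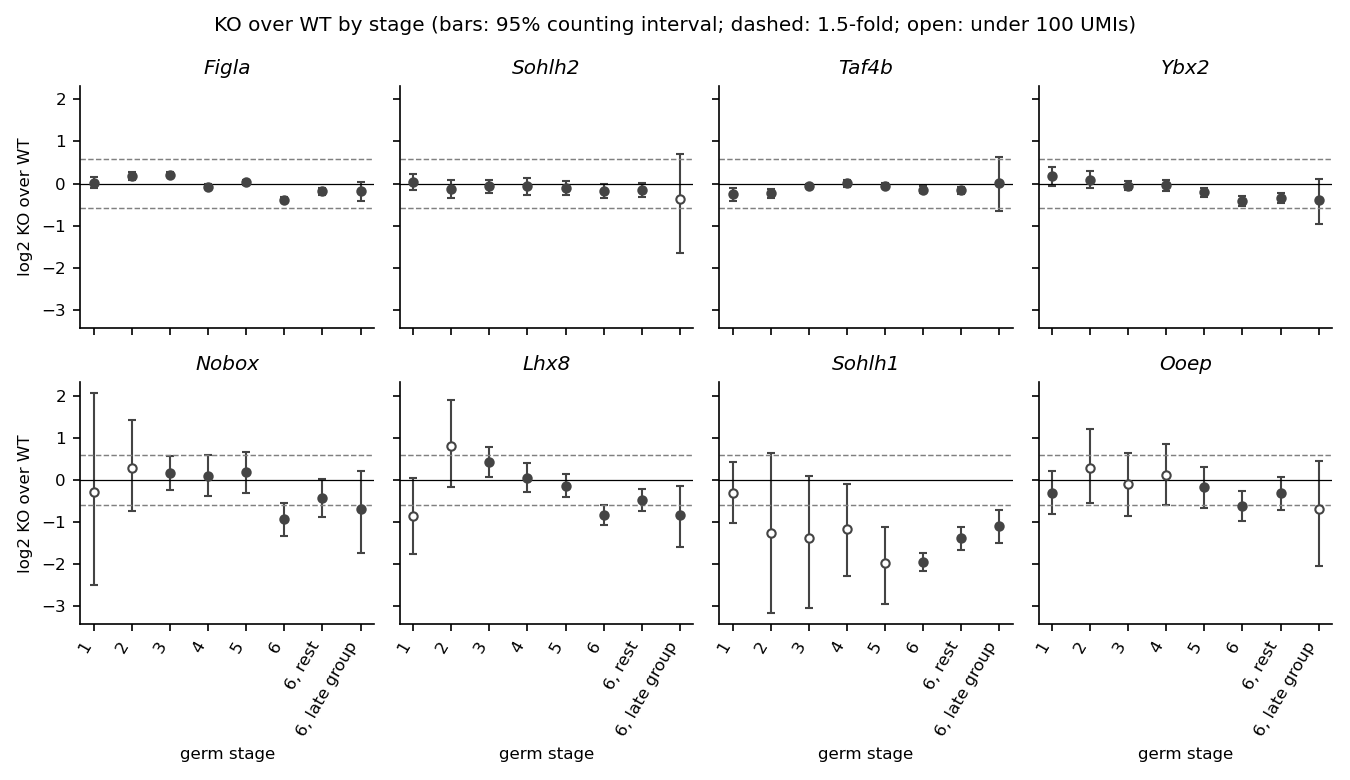
Log2 ratio of KO over WT level of 8 members in stages 1 to 6, in stage 6 without the late group and in the late group, with exact 95% intervals, dashed lines at 1.5-fold and open points where both libraries together held under 100 UMIs. Sohlh1 lies below the lower line in stage 6 with and without the late group, whereas Figla, Sohlh2, Taf4b and Ybx2 stay between the lines throughout.

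As counts, 4 of 8 members were past 1.5-fold in stage 6, all of them lower in KO, beside 5.29% of 10622 genes in either direction and 4.29% lower in KO. None of the 5, 4, 6, 6 and 7 members counted in stages 1 to 5 was past it, beside 3.13%, 5.46%, 4.11%, 3.09% and 3.33% of all genes counted. Over all germ cells, 1 of 8 members, Sohlh1, was past it, beside 5.42% of genes in either direction and 3.66% lower in KO. Lhx8 lay just under the limit there, at 6.66 CPM in KO against 9.96 in WT (-0.58, -0.71 to -0.45). In stage 6 without the late group, Sohlh1 was again the 1 of 8, beside 4.7% of genes. In the late group, 3 of 6 members (Nobox, Lhx8 and Sohlh1) were past it and lower, beside 12.7% of 3022 genes in either direction and 10.5% lower, so the background is high where cells are few. The median log2 ratio over members in stage 6 was -0.51, and that over all genes was -0.07.

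WT stage 6 cells were deeper than KO cells, with medians of 15583 and 8166 UMIs, and Scrublet called 1.87% and 0.568% of them doublets. UMIs of at least 1 somatic marker were found in 62.5% of WT and 47.0% of KO stage 6 cells. The part of these differences in the member ratios was not tested. Besides the thinned values above, the ratios were recomputed with common filter limits, without doublets and without cells holding somatic marker UMIs. Of 59 ratios, 52 stayed within their intervals under common limits and 59 without doublets. Without cells holding somatic marker UMIs, Sohlh1 stood at a log2 ratio of -1.88 in stage 6.

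Outside the germ cells, 6 of the 8 detected members had a somatic level of 8.09% to 17.5% of the germ level in WT and 18.4% to 25.4% in KO, beside the ranges of 12.1% to 13.0% and 17.4% to 19.3% of the 7 germ markers. The somatic level of Figla was 12.9% of its germ level in WT and 18.6% in KO, with Sohlh2 at 11.5% and 18.4%, Taf4b at 12.9% and 21.0%, Nobox at 14.6% and 19.9%, Lhx8 at 8.09% and 21.9%, and Ybx2 at 17.5% and 25.4%. Ooep did not, at 340% in both libraries. Ooep was highest in epithelia-like cells, called from Krt19, Upk3b, Krt7, Aldh1a2, Krt18, Lhx2 and Muc16, at 48.5 CPM (43.6 to 53.8) in WT and 31.4 CPM (28.5 to 34.6) in KO. Granulosa-like cells were at 4.35 and 3.37 CPM and theca-like cells at 0.405 and 0.760 CPM. After thinning, 10.3% of WT and 7.20% of KO epithelia-like cells had an Ooep UMI, against 0% and 0.0513% of theca-like cells of the same libraries. With Scrublet doublets removed, epithelia-like cells were at 50.6 and 34.8 CPM. Early oocyte Ooep in germ cells thus stood below its level in the epithelia-like class in stages 1 to 6, and within the range of that class in the WT late group (42.9 CPM, 33.1 to 54.7).

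Sohlh1 also had somatic UMIs in an uneven pattern. It was at 7.04 CPM in WT and 7.36 CPM in KO granulosa-like cells, at 6.79 and 9.41 CPM in epithelia-like cells, and at 1.22 and 1.20 CPM in theca-like cells. Without Scrublet doublets the granulosa-like level was 7.30 CPM in WT and 8.68 CPM in KO, and the theca-like level was 1.23 and 0.539 CPM. Its pooled somatic level was 37.8% of the germ level in WT and 241% in KO, above the range of the 7 germ markers in both. The levels in stages 2 to 5 of KO, 0.198 to 0.595 CPM, lay below those of all 3 somatic classes with doublets kept. The theca-like interval (0.724 to 1.88 CPM) overlapped those of stages 2, 4 and 5, however. With doublets removed from the somatic cells, the KO theca-like interval was 0.198 to 1.17 CPM, on 6 UMIs. That interval held the levels of stages 2, 4 and 5 (0.355, 0.564 and 0.595 CPM), and stage 3 (0.198 CPM) lay at its lower bound. In WT, stages 4 and 5 (1.26 and 2.32 CPM) lay below the granulosa-like and epithelia-like levels. Their intervals (0.758 to 1.97 and 1.84 to 2.88 CPM) overlapped that of theca-like cells (0.628 to 2.12 CPM).

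**Figure D5:**
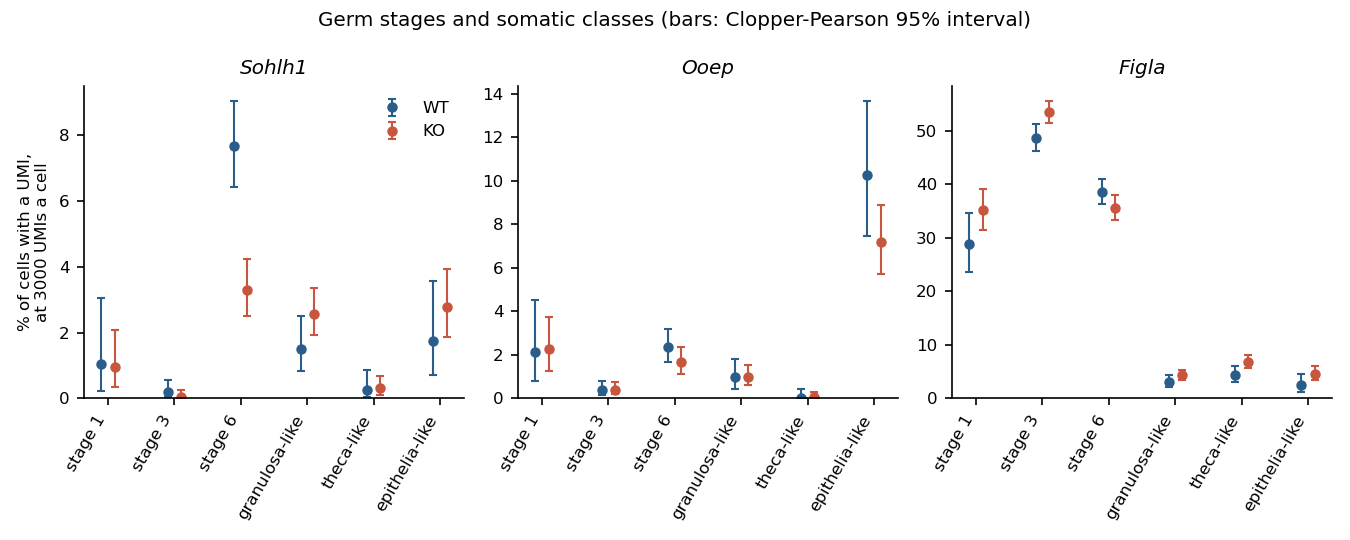
Share of cells (%) with a UMI of Sohlh1, Ooep or Figla after thinning to 3000 UMIs, in germ stages 1, 3 and 6 and in 3 somatic classes of WT and KO, with Clopper-Pearson 95% intervals. Ooep is highest in epithelia-like cells (10.3% in WT and 7.20% in KO), Sohlh1 in WT is highest in stage 6 (7.66%), and Figla is far higher in each germ stage than in the somatic classes.

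Related genes were counted from lists chosen by function. Of 7 genes of the subcortical maternal complex and its partners, 3 had enough UMIs over all germ cells, and 2 were past 1.5-fold lower in KO, Tle6 (log2 ratio -0.62) and Zbed3 (-0.79), beside 3.66% of all genes lower. In stage 6 Tle6 was not past the limit (-0.36). Tle6 rose in WT along the stages as the late members did, from 5.44 CPM in stage 1 to 23.6 CPM in stage 6, and stood at 69.3 CPM in the late group of WT and 84.2 CPM in that of KO. Nlrp5, another subunit, had 26 UMIs in all WT germ cells, 19 of them in stage 6. Of 11 zona pellucida and oocyte growth factor genes, 4 were counted and 0 were past the limit, beside 5.42% of all genes. Zp2 and Zp3, which Figla is known to activate later in oocyte growth, had 7 and 6 UMIs in WT germ cells. Npm2, a histone chaperone of the egg, was not past the limit over all germ cells (0.20) and was past it in stage 6, where it was higher in KO (0.65, 4.23 against 2.69 CPM).

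Of 19 bHLH, LIM and TFIID partner genes, 18 were found and 16 counted, and 1 was past the limit, Id1, an inhibitor of bHLH dimers, at 205 CPM in KO against 314 in WT (-0.62), a count near the 5.42% of all genes past the limit. In stage 6, 4 of 15 were past it and all were lower in KO, the inhibitors Id1 (-0.71), Id2 (-0.73) and Id3 (-0.80) and the LIM-only gene Lmo4 (-0.72), beside 4.29% of all genes lower. The 3 Id genes were also high in the late group, where Id1 reached 2579 CPM and Id3 999 CPM in WT. From stage 1 to stage 6 in WT, Tcf4, an E protein that dimerises with bHLH factors, rose most (log2 2.15) and Lmo4 fell most (-2.30). Of 13 other oocyte regulators, 12 were found and counted, and 1 was lower, Pou6f1 (-0.61), again beside 3.66% of all genes lower. Among them Foxo3, which holds primordial oocytes dormant, rose in WT from 13.7 to 28.9 CPM and stood at 108 CPM in the late group, and Lin28a fell most (log2 -3.91). Of 8 further NLRP genes 1 was counted, Nlrp4c, which was lower in KO (-0.88), beside 3.66% of all genes lower. Another 5 had 0 UMIs in germ cells of both libraries. The median log2 ratios of the lists over all germ cells were -0.62, -0.43, -0.08, -0.03 and -0.88 in the order given, beside -0.06 over all genes. They rest on 3, 4, 16, 12 and 1 counted genes, so the last is the value of Nlrp4c alone.

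The genes most like each member were taken over 20 profiles, 10 bins of a score of meiotic progression in each library, among 8854 genes with at least 500 germ cell UMIs in each library. By Pearson's r of log2(CPM + 1) they were Slc25a33 for Figla (0.98), Chpf for Nobox (0.85), Slc26a2 for Lhx8 (0.94), Gigyf1 for Sohlh1 (0.97), Anp32b for Sohlh2 (0.99), Hspb11 for Taf4b (0.99), Ccng2 for Ybx2 (0.94), Rab1b for Ooep (0.96) and Ets1 for Nlrp14 (0.87, on 20 UMIs in all). The score was not monotone along the 6 stages, with medians of 0.32, 0.73, 1.03, 0.96, 0.88 and 0.71. With bins along the order of stages instead, chosen after seeing the data, the first-ranked gene was another for each of the 9 members, for example Snx17 and Id4 for Sohlh1 (0.96 each) and the recombination helicase gene Hfm1 for Taf4b (0.96).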

How the data were processed

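Droplet single-cell libraries of the 10x 3′ v3 chemistry were made from 1 WT and 1 KO pool of E15.5 ovaries. Counts were deposited as unnormalized whole numbers of UMIs for each barcode and gene, which the authors made with Cell Ranger 3.0.2 per the file headers. The submitters' processing notes also name Seurat 3.2.3 and the mm10 build. The gene annotation behind the counts is not given in the sources used here. Of 27998 gene IDs, 27645 (98.7%) matched GENCODE M21, from which positions were taken. RefSeq promoters were matched for 7 of the 9 members, with Taf4b and Nlrp14 unmatched, and no genome or protein sequence was used.

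Filters followed the study: 1500 to 6500 genes and 5500 to 40000 UMIs for WT, 1200 to 5500 genes and 3000 to 30000 UMIs for KO, and under 10% mitochondrial UMIs in both. These limits differ between libraries. Depth differs with genotype too, also before filtering, when WT had 168483330 UMIs on 11430 barcodes and KO 186117981 on 17829. Cells were scaled to 10000 UMIs, log-transformed as ln(value + 1), restricted to 2000 variable genes without the 9 members, corrected for gene number, UMI number, mitochondrial and ribosomal share, and clustered by Leiden at resolution 0.5 on 30 principal components and 20 neighbours (seed 1). Clusters were named from marker lists with the suffix -like, and cell types are rebuilt here, so differences from the study may come from these names. Doublets called by Scrublet (expected rate 8%) were kept in the values reported and removed as an alternative.

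UMIs were summed per library and stage and given per 1000000 UMIs (CPM) with exact Poisson intervals. Shares carry Clopper-Pearson intervals and ratios exact conditional binomial intervals, all at 95%. A limit for 0 counts uses 3 counts. UMIs were drawn at random down to 3000 per cell for thinned values, and 0 cells were left out. A gene needed 100 UMIs in the 2 sides together to be counted against 1.5-fold (KO against WT) or 2-fold (between stages). No test was run, since cells cannot stand as replicates. The count step was tested on simulated data. The members and gene lists were chosen with earlier results of these data known. All members were named, with 3 genes of the most similar profile per member, of which the nearest is given, and list genes past the limit or with the highest and lowest rise. Genes outside these rules (Nlrp5, Zp2 and Zp3) were chosen after their values were seen. Tools were Python 3.11.15, numpy 2.4.6, scipy 1.17.1, scanpy 1.11.5, scikit-learn 1.9.0, leidenalg 0.10.2 and matplotlib 3.10.9.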

Additional observations from a re-analysis of the deposited data

How the results depend on the processing

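Sohlh1 was lower in KO under each of the 11 alternatives run, with log2 ratios of KO over WT from -1.94 to -0.83 in stage 6 and from -2.49 to -1.95 over all germ cells. The other stage 6 calls moved. Of the 4 members past 1.5-fold in stage 6, 2 remained at 3000 UMIs per cell, 1 each at Leiden resolutions 0.3 and 1 and without the late group (an alternative added after seeing the data), and 0 with 4 bins of the progression score in place of stages, where Nobox (0.12) and Lhx8 (0.20) turned higher in KO. These bins do not follow the order of stages. Over all germ cells the count of 1 became 2 after removal of Scrublet doublets, 2 with scaling without mitochondrial, ribosomal and haemoglobin genes, and 2 with a minimum of 20 UMIs or none. The count of 0 became 1 in stage 1 without cells holding somatic marker UMIs, 3 in the first score bin, 1 in each of stages 1 to 5 with a minimum of 20 UMIs, and without a minimum 2 in stages 1 and 2 and 1 in stages 3 to 5. Members 2-fold higher in stage 6 than in stage 1 were 0 by score bins in both libraries and 0 in KO after thinning. The thinned KO count may reflect the minimum of UMIs, since few cells held a UMI of Lhx8 or Sohlh1. For Lhx8 these were 4 cells in stage 1 and 64 in stage 6, and for Sohlh1 6 and 58. The thinned KO shares were still higher in stage 6 than in stage 1, at 3.63% against 0.643% for Lhx8 and 3.29% against 0.965% for Sohlh1.

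Without thinning, Lhx8 passed the somatic level in all 6 stages of both libraries rather than in 4, Nobox in 5 of both rather than in 3 (WT) and 4 (KO), Ooep in 2 of WT and 1 of KO, and Nlrp14 in 1 of KO. With granulosa-like cells as the reference, 0 passed for Sohlh1 in KO. Unthinned shares of stage 6 cells with both genes were higher, in WT and KO 8.99% and 3.29% for Figla and Nobox, 20.9% and 7.72% for Figla and Lhx8, 19.4% and 5.79% for Figla and Sohlh1, 4.95% and 0.965% for Nobox and Lhx8, 5.31% and 0.852% for Nobox and Sohlh1, and 9.66% and 1.65% for Lhx8 and Sohlh1. Of 502 member ratios recomputed, 432 stayed within their intervals, 68 moved and 2 reversed. Counts were too few for a ratio of Nlrp14 in every stage and of Sohlh1 in stages 1 to 5. No paired analysis was possible because each group is 1 library, and for the same reason no replicate could be left out.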
